A study of Mus musculus with 10 samples.

Results

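Interferon regulatory factors (IRFs) are transcription factors that bind GAAA-rich DNA through a shared domain. The genes described here are Irf1, Irf2, Irf3, Irf4, Irf5, Irf7, Irf8 and Irf9, taken as every gene identifier of the deposited tables that maps to these 8 mouse symbols. They are 8 of 45318 identifiers, and all 8 passed the filter on low values that left 13171 genes for testing. Their mRNA was measured by stranded mRNA sequencing in bone marrow derived macrophages (BMDM), primary macrophages grown from marrow, of C57BL/6 mice. There were 5 groups of 2 libraries each. The KO Poly(I:C) group held cells labelled Tlr4 -/- pre-treated with Poly(I:C), which is a synthetic mimic of viral double-stranded RNA. The KO control group held cells labelled Tlr4 -/- and the WT control group cells labelled WT, both harvested following 6 h in medium that held 5% FBS (fetal bovine serum) and 2% BSA (bovine serum albumin). The KO untreated and WT untreated groups held cells of the same labels without treatment. The labels give no duration for Poly(I:C), do not say whether serum and albumin were in its medium, and give no medium or time for untreated cells. The series set cells labelled Tlr4 -/- and WT side by side to ask about inflammatory signalling and lipid metabolism. The labels do not say how the Tlr4 allele was made, and a WT group with Poly(I:C) was not analysed here. Whether both libraries of a group stem from different mice or cultures is not stated, so each p-value rests on the spread between libraries, which may be technical.

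As background, IRF3 and IRF7 are the factors through which sensors of microbial nucleic acids and of lipopolysaccharide switch on type I interferon genes. IRF3 is held in the cytosol in a latent form until the kinases TBK1 and IKKε phosphorylate it, whereas Irf7 is itself an interferon-stimulated gene. Secreted interferon then acts through STAT proteins, which join IRF9 to form the complex ISGF3 on interferon-stimulated response elements. IRF1 is an inducible activator downstream of interferon-gamma and NF-kB, and IRF2 binds many of the same sites and can oppose it. IRF5 acts in macrophages downstream of MyD88 on inflammatory cytokine genes, and IRF8 works with the myeloid factor PU.1 in macrophage and dendritic cell development. IRF4 is known in lymphocytes, in dendritic cells and in macrophages activated by interleukin-4. TLR4, the lipopolysaccharide receptor, signals to IRF3 through TRIF, and double-stranded RNA is sensed by TLR3, RIG-I and MDA5, none of which needs TLR4.

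Levels are given as CPM, the usual name for counts scaled to a common library size, here the deposited signal per M units of the library total, corrected by a composition factor (trimmed mean of M values, TMM), and as CPM per kb of exon where genes are compared with each other. A difference is on the log2(CPM + 0.1) scale from 1 limma model over all 10 libraries, and a call means a Benjamini-Hochberg adjusted p below 0.05 over all 13171 genes. Deposited totals were 47.5 M and 51.7 M units in KO Poly(I:C), 42.0 M and 41.1 M in WT control and 25.2 M to 26.7 M in the other 6 libraries. Tlr4, the gene of the genotype label, had 30.8 to 63.4 CPM in the 6 libraries labelled KO and 32.3 to 69.1 CPM in the 4 libraries labelled WT, and it was not called in KO untreated against WT untreated cells (limma adjusted p = 0.346). A gene-level value does not show which part of a transcript was read, so it does not check the label, and the genotypes are named here as labelled. All 8 macrophage markers (Adgre1, Csf1r, Cd68, Itgam, Lyz2, Mertk, Fcgr1, Cd14) were above 1 CPM in every group.

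The order of the IRF genes by level differed between groups. Irf7 was the most abundant in KO Poly(I:C) and WT control cells, at 731 and 496 CPM per kb. In KO control and in both untreated groups it was Irf5, the inflammatory cytokine regulator, at 59.3 CPM per kb in KO control, 51.2 in KO untreated and 53.9 in WT untreated. The level per kb summed over the 8 genes was 1026 and 1070 CPM in the 2 KO Poly(I:C) libraries, 129 and 135 in KO control, 610 and 772 in WT control, 117 and 114 in KO untreated and 124 and 142 in WT untreated. Thus the summed level of the KO control libraries lay with the untreated libraries, and those of WT control and KO Poly(I:C) lay apart, in that order. Irf7 made up 69.0% and 70.4% of this sum in KO Poly(I:C) and 71.7% and 71.9% in WT control. In KO control its share was 15.2% and 18.3%, in KO untreated 9.96% and 12.9%, and in WT untreated 15.7% and 21.1%. Irf5 supplied 38.4% to 46.6% of the sum in the groups where Irf7 was low, and 11.4% to 12.1% in the 2 groups where Irf7 was high. Neighbours in the order per kb that overlapped between libraries were Irf9, Irf1 and Irf8 in KO control, Irf8 with Irf9 and Irf2 with Irf3 in WT control, and Irf8, Irf7 and Irf1 in KO untreated. Irf4 was the least abundant of the 8 in every group.

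**Figure D1:**
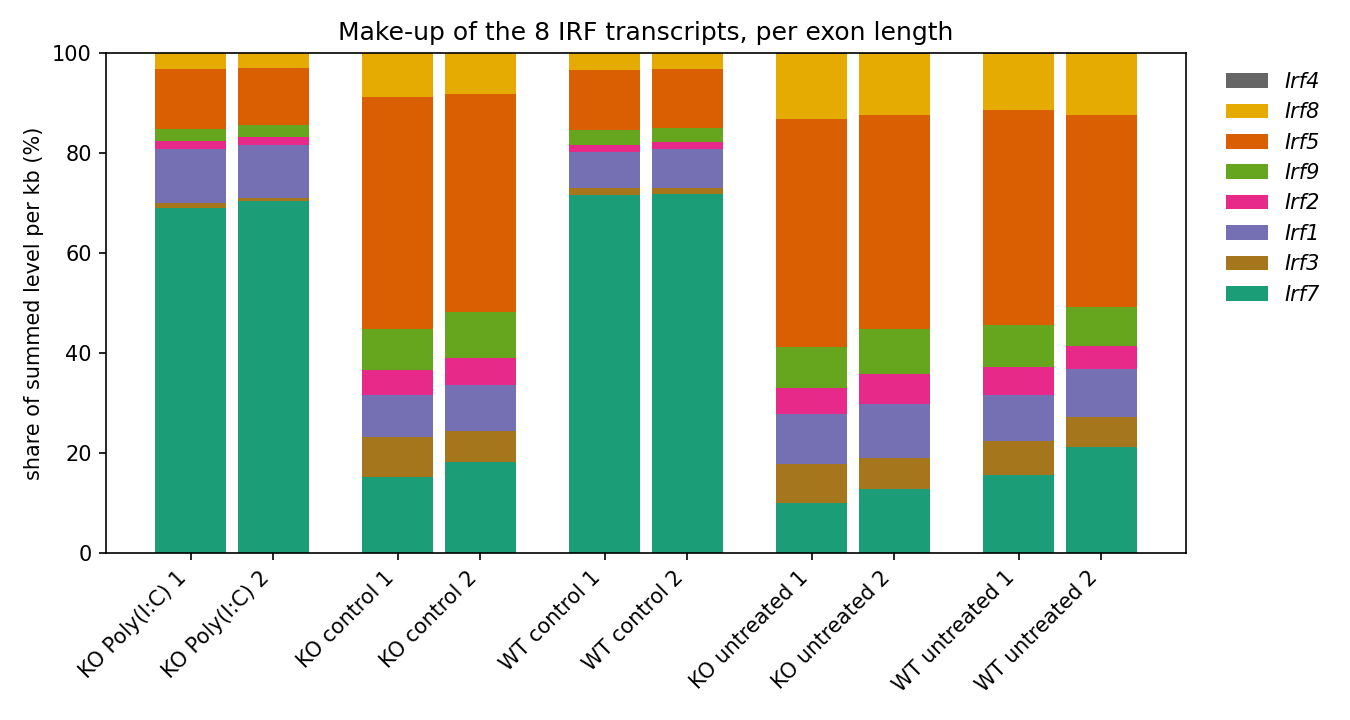
Share of each of the 8 IRF genes in their summed level per kb of exon (vertical axis, percent), with 1 stacked bar per library and libraries along the horizontal axis by group. Irf7 holds 69.0% to 71.9% of the sum in KO Poly(I:C) and WT control libraries and 9.96% to 21.1% in the other 6, where Irf5 is the largest part. The share of Irf4 is too small to see.

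**Figure D2:**
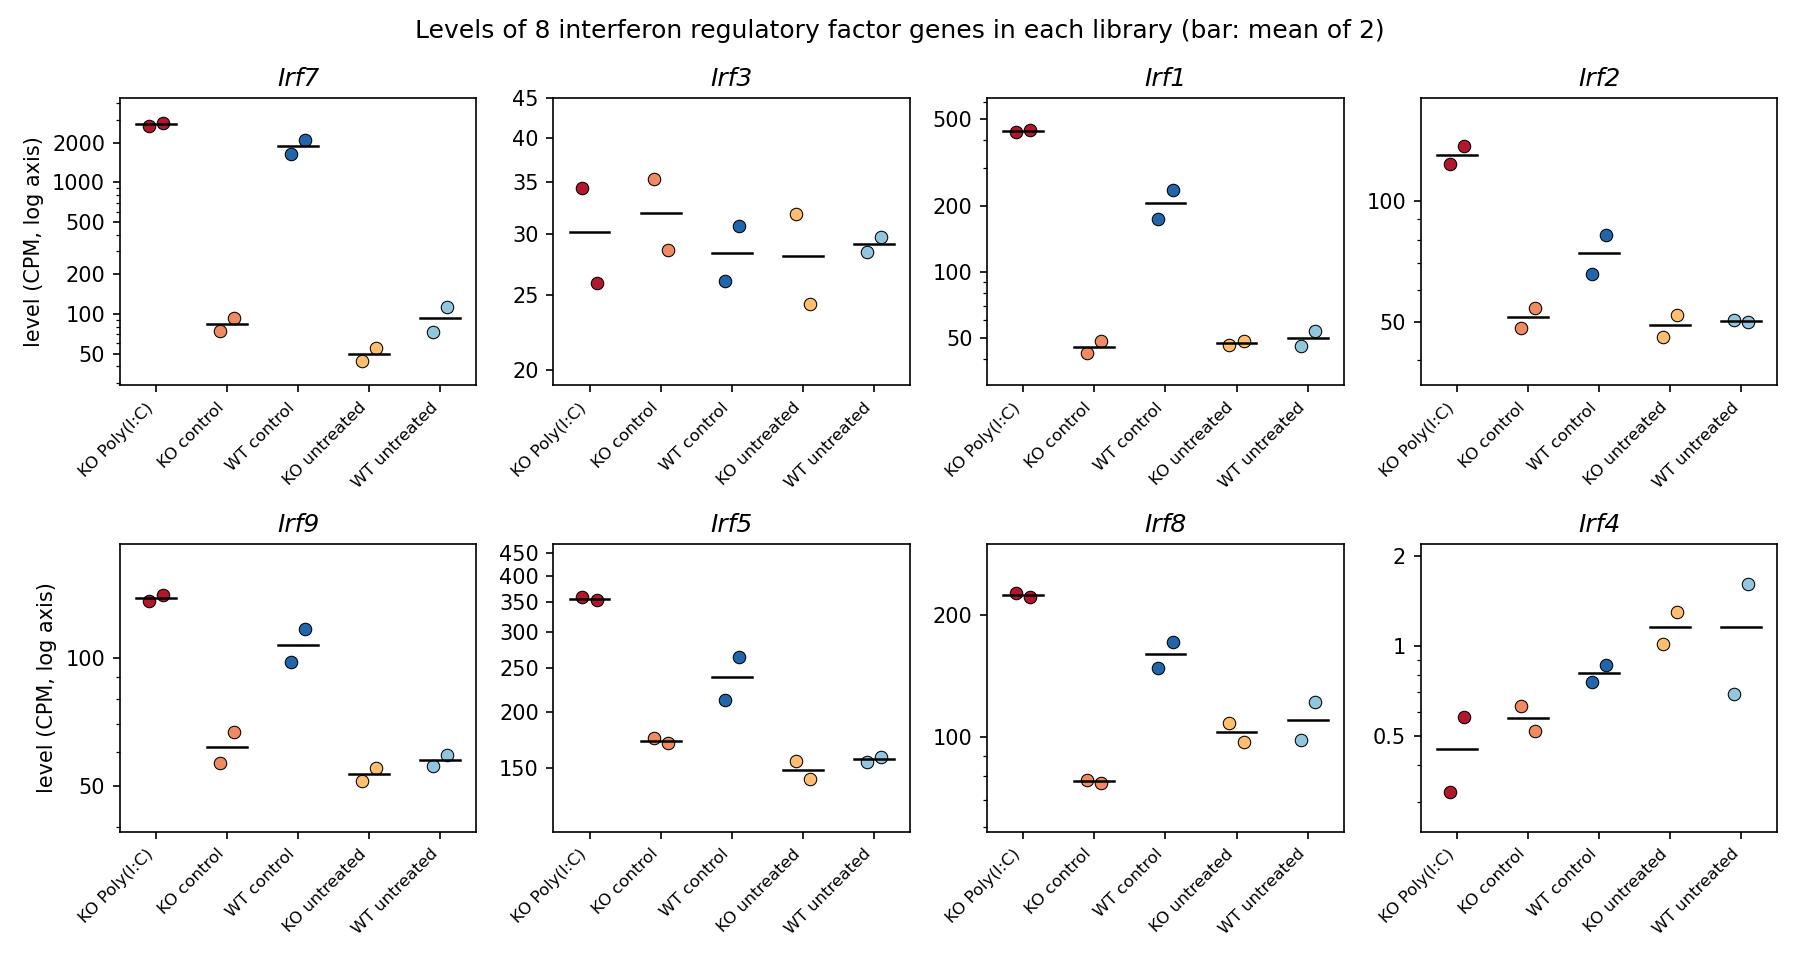
Level of each IRF gene in CPM (vertical log axis, scaled separately per panel) in every library of the 5 groups (points), with the mean of 2 libraries as a bar. Irf7, Irf1, Irf2, Irf9, Irf5 and Irf8 are highest in KO Poly(I:C), then in WT control. Irf3 overlaps between groups, and Irf4 is near 1 CPM or below.

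Irf7, the interferon-inducible activator of interferon-alpha genes, varied more than any other member. It had 2674 and 2844 CPM in KO Poly(I:C), 74.1 and 92.9 in KO control, 1651 and 2097 in WT control, 44.2 and 55.4 in KO untreated and 73.3 and 113 in WT untreated. KO Poly(I:C) and WT control stood far above the other 3 groups without overlap, KO control lay within the range of WT untreated, and KO untreated was lowest. The difference between KO Poly(I:C) and KO control was 5.05 log2 (SE 0.20, limma adjusted p = 1.36e-08), a 33.2-fold higher level. Between KO control and WT control it was -4.49 (SE 0.20, limma adjusted p = 5.38e-08). Between WT control and WT untreated it was 4.35 (SE 0.20, limma adjusted p = 5.31e-08), 20.4-fold. The gene lies on mouse chromosome 7 (141262706 to 141266481, minus strand, GRCm38, 3776 exon bases). The stretch upstream of its RefSeq start that no annotated exon covers is printed here because the gene carries the largest differences (chr7:141266482-141266674, minus strand, GRCm38.p6, bases -250 to -58 from the start). It held none of the 4 motifs searched, so no base is in capitals.
Irf7 upstream: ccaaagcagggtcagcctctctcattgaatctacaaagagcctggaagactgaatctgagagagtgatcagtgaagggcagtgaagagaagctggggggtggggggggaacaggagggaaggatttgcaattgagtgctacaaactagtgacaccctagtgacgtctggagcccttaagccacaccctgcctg

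The motifs were searched on both strands in the 300 bases around each RefSeq start (250 before, 50 after). They were the core of the interferon-stimulated response element (GAAANNGAA), the GAS element of STAT dimers (TTCNNNGAA), a form of the NF-kB element (GGGANTNCC) and the core of the composite element of PU.1 and an IRF (GGAANNGAA), which can overlap the first of these. A match is a description of letters and not a measured site.

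Irf3, the latent partner of Irf7 in the induction of interferon-beta, showed no called difference in any comparison. It had 34.4 and 25.9 CPM in KO Poly(I:C), 35.4 and 28.6 in KO control, 26.1 and 30.7 in WT control, 31.9 and 24.3 in KO untreated and 28.4 and 29.7 in WT untreated. Every group overlapped its neighbour in the order of means, and the spread within groups was as wide as that between them. The difference was -0.09 log2 between KO Poly(I:C) and KO control (95% interval -0.47 to 0.29), 0.17 between KO control and WT control (-0.21 to 0.55) and -0.04 between WT control and WT untreated (-0.42 to 0.34). These intervals leave room for differences of up to about that size in either direction. This reading depends on the scaling, since with library totals alone Irf3 was called at -0.80, 0.65 and -0.57 in these comparisons (limma adjusted p = 0.00146, 0.00642 and 0.0125). Under that scaling the median over all genes was -0.76, 0.50 and -0.52, against -0.06, 0.03 and -0.01 with the TMM factors.

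Irf1, an early inducible activator, was highest in the same 2 groups as Irf7. It had 439 and 445 CPM in KO Poly(I:C), 42.6 and 48.3 in KO control, 175 and 237 in WT control, 46.5 and 48.2 in KO untreated and 45.8 and 53.6 in WT untreated. KO Poly(I:C) was above WT control, WT control was above the other groups, and those 3 overlapped. Irf1 was 9.73-fold higher in KO Poly(I:C) than in KO control (3.28 log2, SE 0.13, limma adjusted p = 1.47e-08). It was lower in KO control than in WT control (-2.17 log2, SE 0.13, limma adjusted p = 4.22e-07) and 4.11-fold higher in WT control than in WT untreated (2.04 log2, SE 0.13, limma adjusted p = 5.3e-07). The gene lies on chromosome 11 (53770014 to 53778374, plus strand, GRCm38). The 250 bases upstream of the first of its 2 RefSeq starts are shown because they hold motif matches, in capitals (chr11:53769764-53770013, plus strand, GRCm38.p6). These are a GAS form at -90 to -82 and an NF-kB form at -12 to -4, which reads the same on both strands.
Irf1 upstream: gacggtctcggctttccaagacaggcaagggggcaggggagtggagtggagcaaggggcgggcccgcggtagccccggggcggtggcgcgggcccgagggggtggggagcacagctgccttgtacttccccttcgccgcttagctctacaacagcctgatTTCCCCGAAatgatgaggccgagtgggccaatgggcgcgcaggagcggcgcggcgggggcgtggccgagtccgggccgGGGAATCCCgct

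Irf2, which binds many of the sites of IRF1, had 124 and 137 CPM in KO Poly(I:C), 48.2 and 54.1 in KO control, 65.6 and 82.4 in WT control, 45.8 and 52.01 in KO untreated and 50.3 and 49.99 in WT untreated. KO Poly(I:C) and WT control each stood above the rest without overlap, and the 3 low groups overlapped. It was 2.54-fold higher in KO Poly(I:C) than in KO control (1.34 log2, SE 0.12, limma adjusted p = 3.31e-06). The difference was -0.52 between KO control and WT control (SE 0.12, limma adjusted p = 0.00302) and 0.55 between WT control and WT untreated (SE 0.12, limma adjusted p = 0.00198). With library totals alone, both of the last 2 were no longer called (-0.04 and 0.02, limma adjusted p = 0.747 and 0.888). In its promoter window a composite form at -247 to -239 and a response element core at -241 to -233 shared 3 bases, a GAS form lay at -224 to -216 and an NF-kB form at -16 to -8.

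Irf9, the DNA-binding subunit of ISGF3, had 136 and 141 CPM in KO Poly(I:C), 56.6 and 66.9 in KO control, 97.8 and 117 in WT control, 51.3 and 55.1 in KO untreated and 55.8 and 59.2 in WT untreated. KO Poly(I:C) and WT control did not overlap with each other or with the low groups, and KO control overlapped WT untreated. It was 2.25-fold higher in KO Poly(I:C) than in KO control (1.17 log2, SE 0.11, limma adjusted p = 4.41e-06). The difference was -0.80 between KO control and WT control (SE 0.11, limma adjusted p = 1.04e-04) and 0.89 between WT control and WT untreated (SE 0.11, limma adjusted p = 3.75e-05). Irf9 shares 123 exon bases with Rnf31, its neighbour on the same strand, so reads there could be split between them.

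Irf5 had 359 and 354 CPM in KO Poly(I:C), 174 and 170 in KO control, 212 and 265 in WT control, 156 and 142 in KO untreated and 155 and 158 in WT untreated. KO Poly(I:C), WT control and KO control formed separate steps above the untreated groups, which overlapped each other. It was 2.07-fold higher in KO Poly(I:C) than in KO control (1.05 log2, SE 0.10, limma adjusted p = 5.92e-06) and 1.51-fold higher in WT control than in WT untreated (0.60 log2, SE 0.10, limma adjusted p = 3.89e-04). The difference between KO control and WT control was -0.46 (SE 0.10, limma adjusted p = 0.00244). With library totals alone the last 2 were not called, at 0.06 for WT control against WT untreated and 0.03, a change of sign, for KO control against WT control. Irf5 shares 411 exon bases with Tnpo3 on the opposite strand. Irf1 shares 135 such bases with Gm17334, Irf3 88 with Bcl2l12 and Irf7 45 with Phrf1. The library kit keeps the strand, but the sources used here do not say whether the authors' counting used it.

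Irf8, the myeloid lineage factor, had 226 and 221 CPM in KO Poly(I:C), 78.3 and 77.2 in KO control, 148 and 172 in WT control, 108 and 97.2 in KO untreated and 98.2 and 122 in WT untreated. Here KO control was the lowest group, below both untreated groups, which overlapped, and KO Poly(I:C) and WT control stood above them in that order. Irf8 was 2.87-fold higher in KO Poly(I:C) than in KO control (1.52 log2, SE 0.11, limma adjusted p = 8.69e-07). The difference was -1.03 between KO control and WT control (SE 0.11, limma adjusted p = 2.16e-05) and 0.54 between WT control and WT untreated (SE 0.11, limma adjusted p = 0.0015). With library totals alone the difference between WT control and WT untreated was 0.01 and not called (limma adjusted p = 0.942). Irf8 lies on chromosome 8 (120736358 to 120756694, plus strand, GRCm38). The 250 bases upstream of the first of its 2 RefSeq starts are shown for their pair of GAS forms, in capitals, at -171 to -163 and -153 to -145 (chr8:120736108-120736357, plus strand, GRCm38.p6).
Irf8 upstream: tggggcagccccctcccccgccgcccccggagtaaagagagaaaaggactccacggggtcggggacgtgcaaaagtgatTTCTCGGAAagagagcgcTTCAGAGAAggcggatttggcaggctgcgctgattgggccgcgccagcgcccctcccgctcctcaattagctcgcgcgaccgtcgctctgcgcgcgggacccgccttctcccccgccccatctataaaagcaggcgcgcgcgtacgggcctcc

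Since Irf8 and Irf4 are also expressed in dendritic and B cells, the markers of those cells are given beside them. The 8 dendritic cell markers summed to 2.497 to 2.996 CPM in KO Poly(I:C), 0.59 to 0.78 in KO control, 2.60 to 3.13 in WT control, 0.81 to 0.85 in KO untreated and 0.50 to 0.75 in WT untreated. At most 1 of them was above 1 CPM in any group, and Cd209a was at 0 in all. The 5 B cell markers summed to 7.53 to 8.72 CPM in KO Poly(I:C), 37.0 to 42.6 in KO control, 10.4 to 11.4 in WT control, 47.3 to 50.6 in KO untreated and 46.1 to 53.0 in WT untreated. Cd79b alone was above 1 CPM, and Pax5 was at 0 in KO control and in both untreated groups. Thus the dendritic cell sum was higher, though 3.13 CPM at most, and the B cell sum lower, in the 2 groups with the most Irf8. Most of the dendritic cell sum there was Ccr7 and Dpp4, averaging 0.69 and 1.10 CPM in KO Poly(I:C) and 1.63 and 0.57 in WT control. In the other groups both averaged 0.15 CPM or less. Zbtb46 averaged 0.41 CPM in KO Poly(I:C) and 0.29 in WT control, against 0.35 to 0.47 in the other groups. The remaining dendritic cell markers averaged 0.33 CPM or less in each group. The 9 neutrophil markers summed to 100 to 106 CPM in KO Poly(I:C), 16.4 to 20.8 in KO control, 85.1 to 114 in WT control, 27.1 to 30.7 in KO untreated and 20.6 to 37.4 in WT untreated, with Ly6g averaging 0.17 CPM or less in each group. S100a8 and S100a9 were the highest of the 9 in each group, averaging 42.7 and 42.3 CPM in KO Poly(I:C) and 44.3 and 37.5 in WT control. The 6 T and NK cell markers summed to 0.198 CPM or less, with Cd3e, Cd3g, Cd8a and Ncr1 at 0 in every group. The part of these marker levels in the IRF levels was not tested. In bulk RNA, fewer cells of a type and less RNA per cell cannot be told apart.

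Irf4 was near the limit of the table. It had 0.32 and 0.58 CPM in KO Poly(I:C), 0.63 and 0.52 in KO control, 0.75 and 0.87 in WT control, 1.01 and 1.30 in KO untreated and 0.69 and 1.62 in WT untreated, which correspond to 11 to 49 deposited units per library. KO Poly(I:C) overlapped KO control, and WT untreated overlapped both KO untreated and WT control. Its only called difference was between KO Poly(I:C) and KO untreated (-1.22 log2, SE 0.38, limma adjusted p = 0.0141). That call was lost without replicate 1 of KO Poly(I:C) (-0.88, limma adjusted p = 0.107) and without replicate 2 of KO untreated (-1.06, limma adjusted p = 0.0804).

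Poly(I:C) was set against the control medium within cells labelled KO, which share their genotype label. Irf7, Irf1, Irf8, Irf2, Irf9 and Irf5 rose, in that order of log2 difference, and Irf3 and Irf4 were not called. Thus 6 of the 8 IRF genes were called, all upward, where 69.4% of all tested genes were called in either direction and 32.5% upward. The median difference was 1.26 over the 8 IRF genes and -0.06 over all genes. With library totals alone the split was 6 up and 2 down, Irf3 and Irf4 being the 2, and the rises were smaller, at 4.34 for Irf7, 2.57 for Irf1, 0.81 for Irf8, 0.63 for Irf2, 0.45 for Irf9 and 0.33 for Irf5. The agent, the medium and the time cannot be told apart here, since the labels give the last 2 for the control group only.

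Against KO untreated cells, Poly(I:C) gave 6 IRF genes called up and 1, Irf4, called down. Of all genes 72.1% were called, 34.5% upward and 37.6% downward. Irf7 was 55.6-fold higher (5.80 log2, SE 0.20, limma adjusted p = 4.45e-09) and Irf1 was 9.32-fold higher (3.22 log2, SE 0.13, limma adjusted p = 1.33e-08). Irf2, Irf9, Irf5 and Irf8 differed by 1.41, 1.38, 1.26 and 1.12 log2. With totals alone Irf3 was also called, downward at -0.65, which made the split 6 up and 2 down, and Irf2, Irf9, Irf5 and Irf8 were at 0.66, 0.63, 0.51 and 0.37. The KO untreated group is not shared with the preceding comparison, but the KO Poly(I:C) group is, so the 2 sets of values are not independent.

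The difference between 6 h in the control medium and no treatment in cells labelled WT came next. Irf7, Irf1, Irf9, Irf5, Irf2 and Irf8 rose, and Irf3 (-0.04) and Irf4 (-0.36, 95% interval -1.20 to 0.48) were not called. Thus 6 of 8 were called, all upward, where 65.8% of all genes were called and 33.1% upward. The median was 0.57 over the IRF genes and -0.01 over all genes. With totals alone only Irf7, Irf1 and Irf9 (0.36) remained called upward, and Irf3 was called downward.

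In cells labelled KO, 2 IRF genes were called between the control medium and no treatment. Irf7 rose 1.67-fold in KO control against KO untreated (0.74 log2, SE 0.20, limma adjusted p = 0.0283), and Irf8 fell (-0.40 log2, SE 0.11, limma adjusted p = 0.0297). The other 6 were not called, with differences from -0.89 for Irf4 (95% interval -1.73 to -0.05, limma adjusted p = 0.128) to 0.21 for Irf5 and Irf9. Of all tested genes 20.0% were called in this comparison, 10.9% upward and 9.08% downward. Both IRF calls were lost without replicate 1 of KO untreated (Irf7 0.58, Irf8 -0.32, limma adjusted p = 0.154 and 0.157) and without replicate 2 of KO control (0.58 and -0.39, limma adjusted p = 0.189 and 0.139). The Irf8 call was also lost without replicate 2 of KO untreated or replicate 1 of KO control (limma adjusted p = 0.0572 and 0.107).

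After the control medium, cells labelled KO were lower than cells labelled WT in Irf7, Irf1, Irf8, Irf9, Irf2 and Irf5, in that order of size, although with library totals alone Irf2 and Irf5 were not called and Irf5 changed sign (0.03). Irf7 was 22.4-fold, Irf1 4.49-fold and Irf8 2.05-fold lower in KO control. Irf3 (0.17) and Irf4 (-0.44, 95% interval -1.28 to 0.40) were not called. Thus 6 of 8 IRF genes were called, all downward, where 61.1% of all genes were called and 30.2% downward. The median was -0.66 over the IRF genes and 0.03 over all genes. With totals alone the split was 1 up, Irf3, and 4 down, with Irf8 at -0.55 and Irf9 at -0.31.

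The difference between both responses to the medium was tested as an interaction, in which a negative value means a smaller rise, or a fall, in cells labelled KO. It was called for 6 of 8 IRF genes, all negative (with library totals alone Irf2 and Irf5 were positive at 0.01 and 0.11 and not called), where 45.7% of all genes were called and 23.7% with a negative sign. Irf7 had -3.61 (SE 0.29, limma adjusted p = 6.65e-06) and Irf1 -2.10 (SE 0.19, limma adjusted p = 1.48e-05). Irf8 had -0.94 (SE 0.16, limma adjusted p = 8.11e-04) and Irf9 -0.68 (SE 0.15, limma adjusted p = 0.00414). Irf2 and Irf5 were close to the threshold, at -0.48 and -0.38 (limma adjusted p = 0.0357 and 0.0469). The Irf2 call was lost in 7 of 19 alternative settings, among them leaving out either WT untreated library, KO untreated replicate 2, WT control replicate 2 or KO control replicate 1 (limma adjusted p from 0.0676 to 0.126). The Irf5 call was lost in 11 of 19, among them leaving out any library except KO untreated replicate 2 and WT control replicate 1 (limma adjusted p from 0.0649 to 0.149). Irf3 and Irf4 were not called. With totals alone the split was 1 up and 3 down, with Irf8 still called at -0.45 and Irf9 not called at -0.19.

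Without treatment, no IRF gene was called between cells labelled KO and WT, where 0.167% of all genes were called. Unadjusted, 1 of the 8 (Irf7) and 1146 of all 13171 genes had a p under 0.05. Irf7 was at -0.88 log2 (SE 0.20, 95% interval -1.33 to -0.43, limma adjusted p = 0.265), and its libraries did not overlap between the labels. It was called in 1 of 19 alternative settings, with the replicate number as a block (limma adjusted p = 0.00363). The other 7 lay between -0.11 and 0.10, with the widest interval for Irf4 (-0.74 to 0.94).

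Cells labelled KO with Poly(I:C) were also set against cells labelled WT in control medium, the 2 groups with high IRF levels, which differ in genotype label and treatment at once. Irf1 (1.12), Irf2 (0.82), Irf5 (0.59), Irf8 (0.49) and Irf9 (0.37) were called higher in KO Poly(I:C). Irf7 was not called at 0.57 (SE 0.20, limma adjusted p = 0.0688), but passed in 5 of 19 alternative settings, among them the deposited scaling, the fit to these groups alone (limma adjusted p = 0.0406 and 0.0281) and leaving out either WT untreated library (limma adjusted p = 0.0236 and 0.0234). Thus 5 of 8 were called, where 23.7% of all genes were called and 11.9% upward. With totals alone, Irf8 and Irf9 were no longer called (0.26 and 0.14), and of the remaining 3 Irf5 was at 0.36. With all genes above 0 kept, Irf9 was lost (limma adjusted p = 0.0515). Without replicate 1 of WT control, or without either KO Poly(I:C) library, 3 were called, Irf8 and Irf9 being lost each time.

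**Figure D3:**
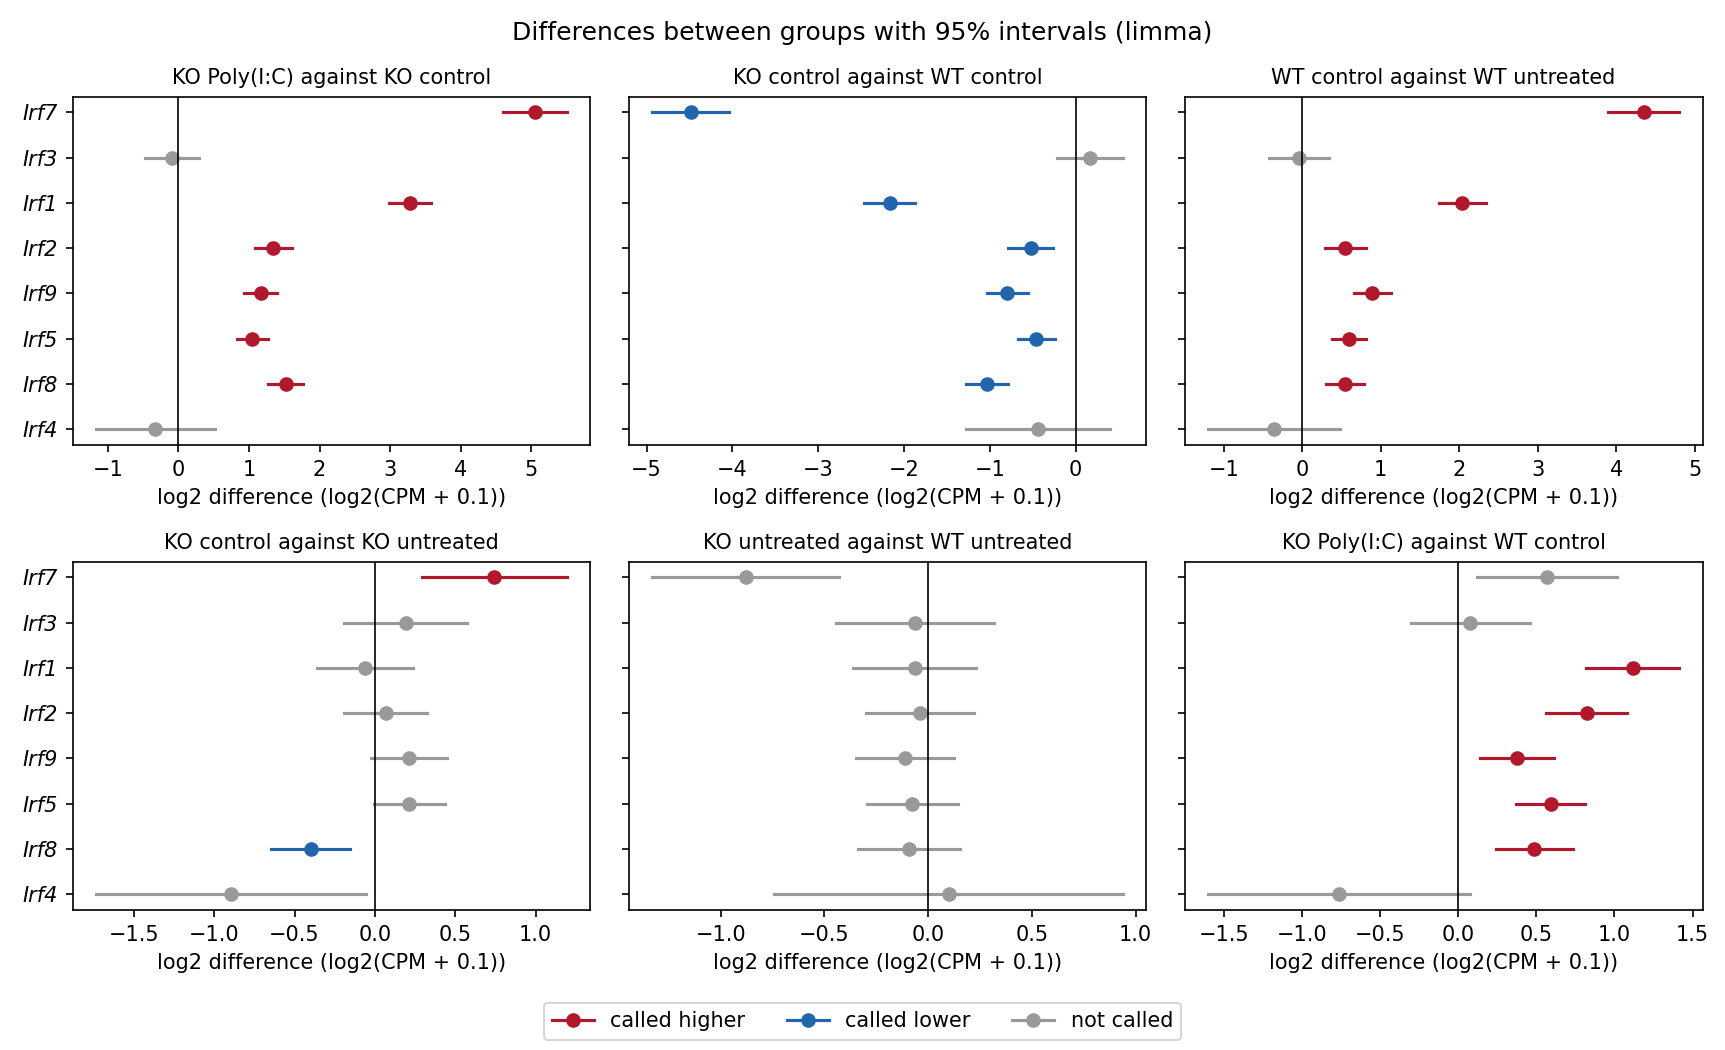
Difference between the groups named above each panel on the log2(CPM + 0.1) scale (horizontal axis, with its own range per panel), with 95% intervals from limma, for the 8 IRF genes (rows). Irf7 has the largest differences, and 6 genes are called in each panel of the upper row, while Irf3 and Irf4 are grey there. With library totals alone Irf3 was called in all 3 upper panels, Irf2 and Irf5 lost their calls in the upper middle and right panels, Irf5 with a change of sign in the middle one, and Irf8 lost its call in the upper right one.

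The genes most like each IRF gene across the 10 libraries were taken by Pearson correlation of log2(CPM + 0.1) among 11254 other genes, as a description of libraries that share 5 groups. Irf7 was most like Zbp1 (0.999), a sensor of Z-form nucleic acid, and Isg15 (0.999), a ubiquitin-like interferon-induced protein. Irf9 was most like Trim34a (0.998) and Oas2 (0.997), and Irf1 most like March5 (0.999) and Ppp1r15b (0.998). Irf2 was most like Zbtb5 (0.995) and Prpf4 (0.993), Irf5 like Mafk (0.995) and Scamp2 (0.994), and Irf8 like Naaa (0.994) and Rilpl1 (0.994). The best matches of Irf3 were weaker, Tmem14c (0.937) and Ndufa8 (0.909), as was that of Irf4, Rnf43 (0.945). Within the family, the pairs among Irf1, Irf2, Irf5, Irf7, Irf8 and Irf9 correlated at 0.890 to 0.986, the highest being Irf1 with Irf9. Irf3 correlated with the other members at -0.35 to 0.14, and Irf4 at -0.64 to -0.30.

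Among the 11 RefSeq promoter windows of the 8 genes, 1 held a response element core, against 8.56% of 32851 windows of all genes. A GAS form was found in 3 of the 11, against 8.3% of all windows, an NF-kB form in 2, against 3.95%, and a composite form in 1, against 8.24%. The matches lay in Irf1, Irf2 and Irf8. The windows of Irf7, Irf3, Irf9, Irf5 and Irf4 held none, which says only that these letters are not in these windows.

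**Figure D4:**
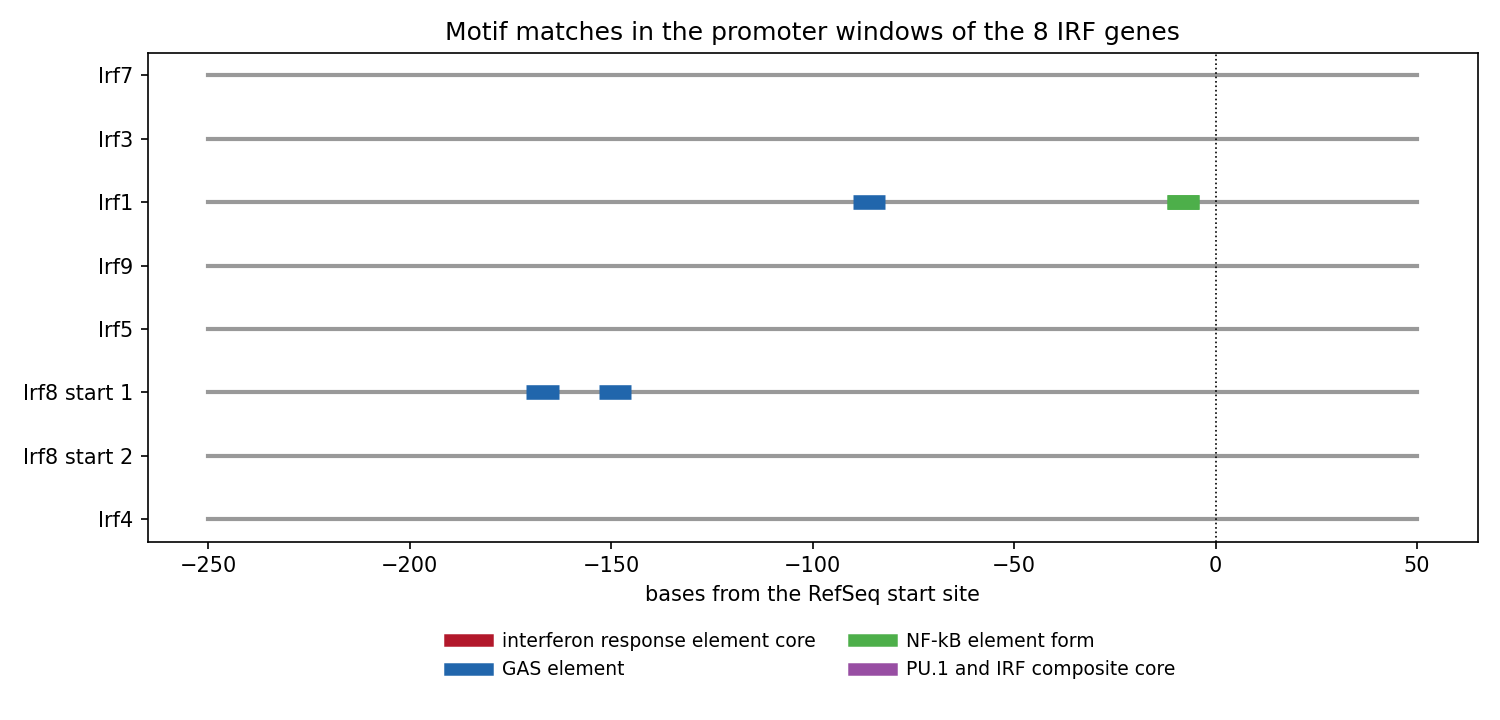
Positions of the 4 motif forms (coloured blocks) in promoter windows of the IRF genes, with distance from the start in bases along the horizontal axis. There is 1 row per RefSeq start whose window begins outside annotated exons. The window of Irf2, with its 4 matches, is therefore not drawn, nor is 1 of the 2 windows of Irf1 and of Irf9. All blocks drawn lie upstream of a start, in 1 window each of Irf1 and Irf8. The other rows are empty.

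Genes that act before and after the IRF proteins were counted by list, and the counts stand against 69.4% of all tested genes called in KO Poly(I:C) against KO control, 61.1% in KO control against WT control, 65.8% in WT control against WT untreated and 20.0% in KO control against KO untreated. Of 24 receptors, adaptors and kinases upstream of IRF3, IRF5 and IRF7, 19 rose and 3 fell in KO Poly(I:C) against KO control (median 1.26), a split of 14 and 7 with totals alone. In KO control against WT control 3 were higher and 19 lower (median -0.87), in WT control against WT untreated 19 and 4 (median 1.01), and in KO control against KO untreated 4 and 2 (4 and 1 with the deposited scaling or with median-of-ratios scaling). The largest differences were those of the double-stranded RNA sensors. Ifih1, which encodes MDA5, was at 4.25 in KO Poly(I:C) against KO control, -3.28 in KO control against WT control and 3.34 in WT control against WT untreated. Tlr3 was at 4.05, -3.16 and 3.08 in the same comparisons, and Ddx58, which encodes RIG-I, at 3.38, -2.93 and 2.82. Of 10 genes of the interferon receptor and its STAT signalling, 9 rose and 1 fell with Poly(I:C), 9 were lower and 1 higher in KO control than in WT control, and 9 rose and 1 fell in WT control against WT untreated. Ifnb1, the interferon-beta ligand, led them at 7.92, -3.29 and 3.16. It had 33.2 and 29.3 CPM in KO Poly(I:C) and only 0.92 and 1.46 in WT control. In KO control it had 0.066 and 0 CPM, and in WT untreated 0 and 0.099. Each of its differences thus sets a level against values at or near 0, and its size depends on the added 0.1. Jak2, a receptor-associated kinase, was at 3.34, -2.72 and 2.93. Stat2, the partner of IRF9, was at 3.17 and -2.64 in the first 2.

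Of 15 partners and cofactors, 9 rose and 3 fell with Poly(I:C), 2 were higher and 9 lower in KO control than in WT control, and 10 rose and 2 fell in WT control. These splits were 7 and 6, 6 and 8, and 7 and 3 with totals alone. Of all tested genes 69.4%, 61.1% and 65.8% were called in the same 3 comparisons. Batf2, which pairs with IRF proteins, led all 3 comparisons at 5.08, -4.16 and 4.20. Of 15 brakes on the pathway, 12 rose and 2 fell with Poly(I:C), 1 was higher and 9 lower in KO control, and 11 rose and 1 fell in WT control. With totals alone these were 7 and 7, 5 and 7, and 8 and 3. Among the brakes Usp18, which blocks the interferon receptor, was at 4.78, -3.88 and 4.58 in those comparisons.

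All 19 listed genes with interferon response elements moved in the direction of Irf7 in 3 comparisons. They rose with Poly(I:C) (median 5.34), were lower in KO control than in WT control (median -3.99) and rose in WT control (median 4.65), and 13 of them also rose in KO control against KO untreated (median 0.92). Ccl5, a chemokine, led at 9.76, -8.72 and 9.47, and Cxcl10, an interferon-induced chemokine, was at 7.74, -5.78 and 7.36. In KO untreated against WT untreated 1 of the 19 was called, Cmpk2 at -0.96 (limma adjusted p = 0.0225), and 0 of the genes of the other 7 lists. Of all tested genes 0.167% were called there, and the median was -0.69 over the 19 and -0.01 over all genes. Of 17 genes linked to IRF1 and IRF8, 15 rose with Poly(I:C), all 17 were lower in KO control than in WT control, and 16 rose in WT control, led by Il12b, Nos2 and Cxcl9. In KO control against KO untreated 6 of the 17 rose and 0 fell, where 20.0% of all tested genes were called and 10.9% upward. Irf1 was not called there, and Irf8 was called lower, a call lost when any compared library was left out. The part of both factors in these genes was not tested. Of 6 tested genes linked to IRF5, 5 rose with Poly(I:C) and 6 were lower in KO control than in WT control. All 6 rose in WT control, and 4 rose in KO control against KO untreated. Irf5 itself was not called in the last of these (0.21, limma adjusted p = 0.158), and its part in the listed genes was not tested. The lists overlap, since Il12a and Il12b stand in both of the last 2 and Ccl5 in that of IRF5 and that of the response elements. Il6 was at 8.94, -7.55 and 7.40 in the first 3. Of 6 tested genes linked to IRF4, 5 rose and 1 fell with Poly(I:C) (5 and 0 with the deposited scaling or with median-of-ratios scaling). In KO control against WT control 1 was higher and 5 lower (0 and 5 with the deposited scaling). In WT control against WT untreated 3 rose and 2 fell. In KO control against KO untreated 3 fell, led by Arg1 (-2.18), an arginine-degrading enzyme of alternative activation, and Mrc1 (-1.45), the mannose receptor. Both also had lower levels in WT control than in WT untreated. Arg1 had 29.1 and 31.5 CPM against 51.6 and 70.6, and Mrc1 158 and 154 against 511 and 467.

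**Figure D5:**
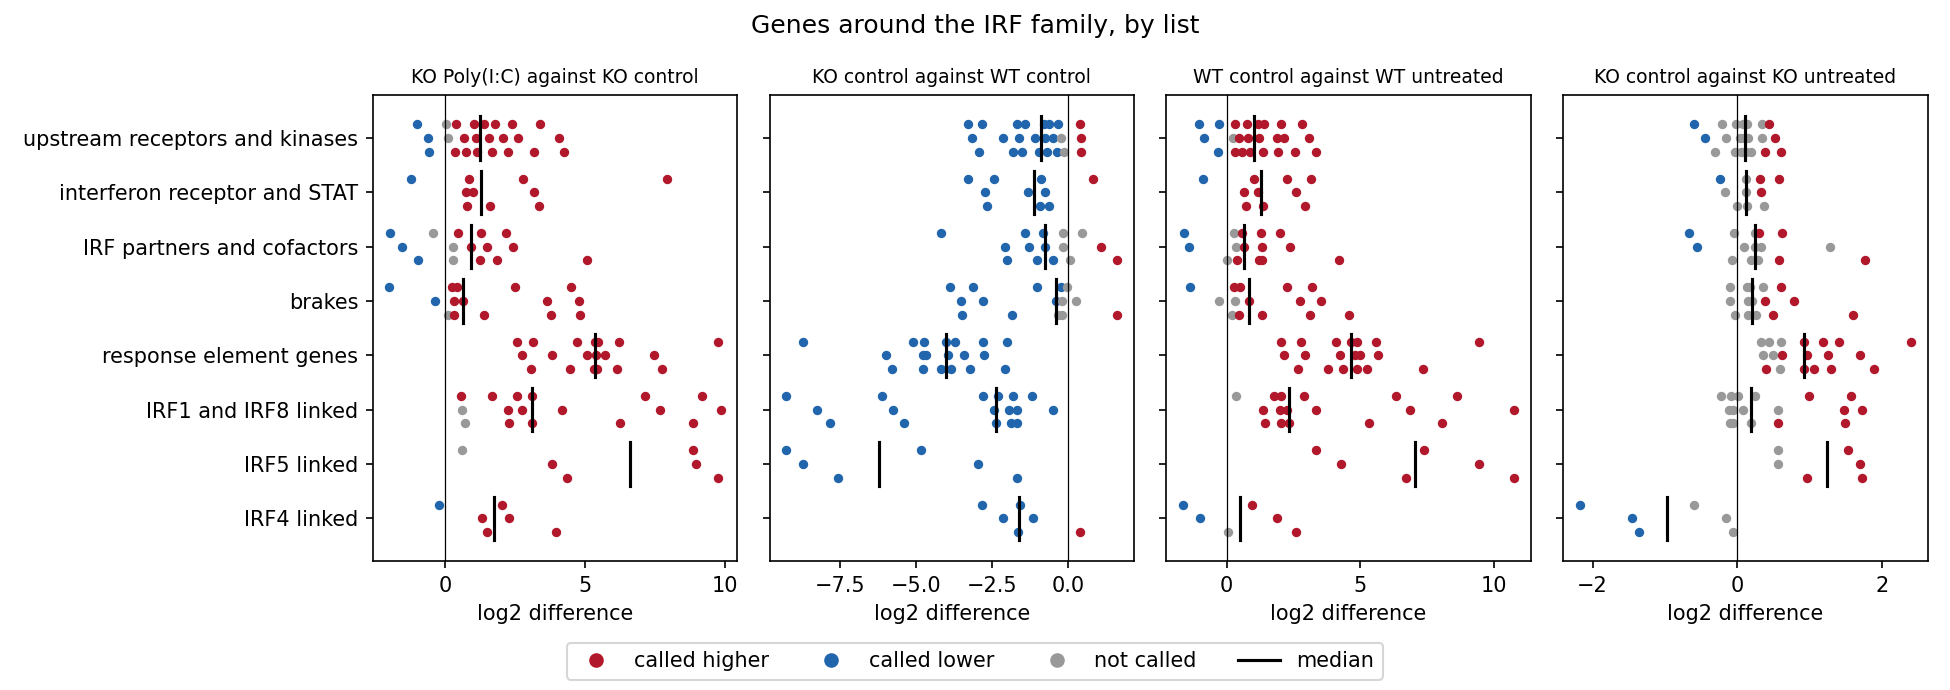
Log2 difference (horizontal axis, with its own range per panel) of each tested gene of the 8 lists around the IRF family (rows), for 4 comparisons, with the list median as a black bar. Of the response element genes 19 of 19 are called in each of the first 3 panels and 13 in the last. In the first 3 panels the upstream, interferon receptor, partner, brake and IRF4 lists hold calls in both directions. With library totals alone the split there was more even for partners and brakes, and in the first panel for the upstream list. In the last panel 5 brakes are called, all higher.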

How the data were processed

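Per the labels' protocols, RNA was extracted with an RNeasy kit and sequenced as TruSeq stranded mRNA libraries. The tools named in the submitters' processing notes are STAR 2.4.0d, RSEM 1.2.12, Trim Galore 0.2.8 and DESeq2. Their roles and settings and the build used by the authors are not stated there. The authors deposited 1 table of log2 values (rlog) and 1 of whole numbers. In 4 libraries no low whole number is missing, but in the other 6 some never occur, as when reads are multiplied by 1 factor and rounded. The whole numbers were used here as a signal that the authors seem to have scaled before they deposited it. Therefore no count model was used, nor any interval or floor derived from read counts, and the depth in reads is not known from the table. Of 45318 identifiers 44585 matched a symbol of GENCODE M21, whose GRCm38 coordinates are printed; RefSeq sequences are of GRCm38.p6.

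Signal was divided by the library total times a TMM factor (30% of M and 5% of A values trimmed) to give CPM. A gene was tested if 2 or more libraries had a value of 10 or higher, which held for 13171 of 20687 genes above 0. The test was limma 3.58.1 with a trend in R 4.3.3 on log2(CPM + 0.1), which understates changes of low genes, with 1 coefficient per group (5 residual and 4.82 prior degrees of freedom). There were 8 comparisons, adjusted over all genes tested. The fit was tried on simulated data in which a small part of the genes changed, evenly up and down, in 1 group. That setting does not check the scaling where most genes were called, such as 65.8% in WT control against WT untreated. Groups and replicate numbers are from the sample titles. The alternatives were 3 other scalings, pseudocount 1, 2 other filters, the groups of a comparison alone, the replicate number as a block, the rlog values and leaving out each library. The members, the 8 lists (113 genes), the motifs and the tests were chosen with earlier results of these data known. Named were all IRF genes, the 2 genes most like each, and the called genes of the lists with the largest differences, of which a part is printed, for the 4 comparisons of the plot of lists. Protein sequences were not used here, and a few named genes are not reported here.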

Additional observations from a re-analysis of the deposited data

Results flagged for a closer look

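The response to the control medium differed between cells labelled KO and cells labelled WT for 6 IRF genes, by the test of the difference itself (the limma interaction, log2, KO minus WT). The value was -3.61 for Irf7, -2.10 for Irf1, -0.94 for Irf8, -0.68 for Irf9, -0.48 for Irf2 and -0.38 for Irf5. Behind them, KO control minus KO untreated was 0.74 for Irf7, -0.06 for Irf1, -0.40 for Irf8, 0.21 for Irf9, 0.07 for Irf2 and 0.21 for Irf5. WT control minus WT untreated was 4.35, 2.04, 0.54, 0.89, 0.55 and 0.60 in the same order. Irf8 was thus called in opposite directions in the 2 labels, although its rise in WT control was 0.01 and not called with library totals alone. Its fall in KO control lost its call when any 1 of the 4 compared libraries was left out (limma adjusted p from 0.0572 to 0.157) and with all genes above 0 kept (limma adjusted p = 0.0582). With library totals alone Irf2 and Irf5 had 0.01 and 0.11, not called, and Irf9 had -0.19, not called. The summed neutrophil markers were 16.4 to 20.8 CPM in KO control and 85.1 to 114 CPM in WT control. Most of that sum was S100a8 and S100a9, averaging 6.30 and 7.07 CPM in KO control and 44.3 and 37.5 CPM in WT control. The part of these markers in the differences was not tested.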

How the results depend on the processing

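Over 19 alternatives, 1129 of 1208 IRF gene values kept their direction and their side of the threshold. With the direction kept, 40 lost a call and 11 gained one. Another 28 changed sign, 24 of these with no call in either setting, and the rest of the 28 also lost or gained a call. The rlog table, pseudocount 1 and median-of-ratios scaling changed no IRF call. The median over all genes, between -0.06 and 0.04 in every comparison with the TMM factors, was with library totals alone 0.50 in KO control against WT control, -0.52 in WT control against WT untreated, -0.76 in KO Poly(I:C) against KO control, -0.77 against KO untreated, -0.24 against WT control and 0.52 in the interaction, and with the deposited scaling it was -0.14, 0.14, 0.13, 0.15, -0.00 and -0.12. Under totals alone the sign changed for Irf5 in KO control against WT control (0.028), for Irf3 in KO Poly(I:C) against KO untreated (-0.65) and against WT control (-0.15), and for Irf2 (0.010) and Irf5 (0.11) in the interaction. Under the deposited scaling it changed for Irf3, to -0.010 in KO control against WT control, 0.12 in WT control against WT untreated and 0.11 in KO Poly(I:C) against KO control.

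The count of IRF genes called in KO control against KO untreated was 0 with all genes above 0 kept, and 0 to 2 with 1 library left out. In KO Poly(I:C) against WT control it was 3 with totals alone, and 3 to 6 with 1 library left out. Leaving out 1 library changed the sign of values that were not called. In KO untreated against WT untreated they ranged from -0.18 to 0.049 for Irf1, -0.13 to 0.052 for Irf2, -0.26 to 0.13 for Irf3, -0.46 to 0.66 for Irf4 and -0.25 to 0.064 for Irf8. In WT control against WT untreated they ranged from -0.16 to 0.078 for Irf3 and -0.92 to 0.20 for Irf4, and in KO control against KO untreated from -0.15 to 0.030 for Irf1, -0.026 to 0.16 for Irf2 and -0.0025 to 0.39 for Irf3. In KO Poly(I:C) they ranged from -0.30 to 0.11 for Irf3 and -0.67 to 0.013 for Irf4 against KO control, and for Irf3 from -0.10 to 0.30 against KO untreated and -0.13 to 0.28 against WT control. In the interaction Irf4 ranged from -1.10 to 0.026. The cause of these changes was not tested.

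With the replicate number as a replicate block, 1 IRF gene, Irf7, was called in KO untreated against WT untreated (-0.88, limma adjusted p = 0.00363), and Irf7 also in KO Poly(I:C) against WT control (0.57, limma adjusted p = 0.00282). The block changed no other IRF call. The deviations of libraries with the same number correlated at 0.013 to 0.315 between groups, above 0.1 in 6 of 10 pairs of groups. These held every pair within a genotype label, at 0.315 for the WT groups and 0.171 to 0.306 for the KO groups. The 4 pairs below 0.1 were all between the genotype labels. The sample labels name no shared batch, so the number was not taken as a pairing. A separate pairing within each genotype label was not tested. With 2 libraries per group, the smallest differences and Irf4, at 11 to 49 units, are the least certain, and Irf4 was not tested with the filter of 50 units.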
